A study of Mus musculus with 2 samples.

Results

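The genes described here encode the oxidative phosphorylation system: the subunits, and some assembly factors, of the 4 respiratory complexes and of ATP synthase. Members were the genes whose symbols start with Nduf, Sdh, Uqcr, Cox4 to Cox8, Atp5, mt-Nd, mt-Co, mt-Cytb or mt-Atp and that held at least 50 unique molecular identifiers (UMIs, 1 per captured transcript) over both libraries. Of 32285 genes in the files, 111 symbols matched and 106 reached the minimum, 93 nuclear and 13 mitochondrially encoded. The 5 that did not were Cox4i2 (10 UMIs), Cox8b (29), Ndufa4l2 (12), Cox7b2 (0) and Cox8c (0).

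Viable CD45+ cells, the leukocytes, were sorted from adrenal glands of 7-week-old C57BL/6 mice and profiled by droplet 3′ single-cell RNA sequencing, as 1 female and 1 male library. No treatment, transgene or allele was named for either library, and the number of animals pooled in each was not given in the sources used here. Cells are not replicates, so no test across animals was possible and no p-value is given. Intervals in brackets are exact 95% intervals that cover counting error only.

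Oxidative phosphorylation passes electrons from NADH, through complex I, and from succinate, through complex II, to complex III, cytochrome c and complex IV, and the proton gradient formed on the way drives ATP synthase, complex V. Most subunits are encoded in the nucleus, and a small set, all from complexes I, III, IV and V, is encoded by mitochondrial DNA. Macrophages are known to shift between respiration and glycolysis with their activation, and the study compared the metabolism of adrenal gland macrophages (AGMs) with low and high MHC class II.

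After filtering, 3694 female cells (15045146 UMIs) and 2449 male cells (9035910 UMIs) remained. The median cell held 3489.5 and 3008 UMIs. A class was assigned by a gate on canonical marker genes that held no member, which classed 89.96% of female and 90.9% of male cells. Clusters built without the members gave the same class in 98.9% and 98.6% of the cells classed both ways. AGMs comprised 844 female and 897 male cells and lymphocytes (B, T and NK cells) 2050 and 1012 cells. A total of 2 barcodes occurred in both libraries. Levels are UMIs of a gene or list per 1000000 UMIs of a class (CPM). Other adrenal material was present in the CD45+ sort: 40 cells of each library were gated as endothelial, and transcripts of the adrenal cortex stood at 104 CPM in all female and 132 CPM in all male cells. A 3′ count gives 1 UMI per transcript whatever its length, so no length scaling was applied, and levels of different genes still carry their own capture efficiency.

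The nuclear members held 578833 UMIs over both libraries (2.25% of all UMIs) and the mitochondrially encoded ones 970314 (3.77%). Nuclear members ranged from 74 UMIs for Cox7a1, a cytochrome c oxidase subunit of heart and skeletal muscle, to 30371 for Atp5e, the epsilon subunit of ATP synthase. Mitochondrially encoded members ranged from 1056 UMIs for mt-Nd6, the gene on the light strand, to 252363 for mt-Co3, a core subunit of complex IV. Complex IV and complex V supplied 149840 and 183644 of the nuclear UMIs, the accessory subunits of complex I 160351, complex III 53302 and the 4 subunits of complex II 8413.

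The nuclear level was similar in most leukocytes and lowest in neutrophils. Summed over the 93 genes it was 25880.5 CPM in female and 24533 CPM in male NK cells, 23722 and 23144 in T cells, 22919 and 21896 in monocytes, 21121 and 21110 in AGMs and 18510 and 19496 in B cells. Neutrophils, with 47 and 52 cells, stood at 11708 CPM (10983 to 12468) and 12527 CPM (11814 to 13272), below every other class in both libraries. Dendritic cells held 25066 and 22573 CPM, endothelial cells 21658 and 23271, and mast cells and basophils 19433 and 18681 (22 and 8 cells). The order of the classes between these was not the same in the 2 libraries: plasmacytoid dendritic cells, with 13 and 6 cells, were the highest in the female library at 26762 CPM and at 20135 CPM (18388 to 22004) lay near AGMs in the male one. The sum of this class includes Cox6a2, which was high there and is described below with the paralogs.

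The mitochondrially encoded level ordered the classes differently. B cells, among the 3 lowest classes in nuclear transcripts, held 54036 and 42134 CPM, and mast cells and basophils 51136 and 62920 CPM. Adrenal cortex transcripts stood at 664 and 758 CPM in mast cells and basophils and at 2542 and 637 CPM in endothelial cells, and their part in these levels was not tested. Monocytes were lowest in both libraries, with 22577 and 19957 CPM, next to dendritic cells (24877 and 21602) and neutrophils (25335 and 22881). AGMs held 34720 and 34096 CPM, T cells 39993 and 35084, and NK cells 32910 and 29988. The 2 genomes' transcripts therefore gave no common ranking: NK cells were near the top for nuclear and below AGMs for mitochondrially encoded transcripts in both libraries. Fewer mitochondrial transcripts per cell and more transcripts of other kinds cannot be told apart in such a level.

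**Figure D1:**
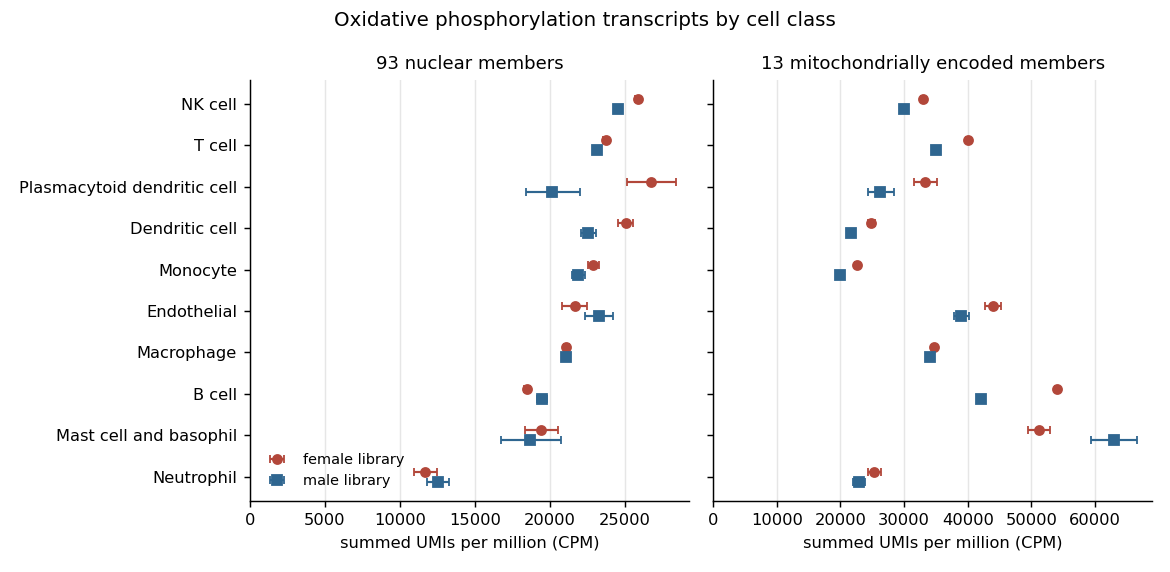
Summed CPM of the 93 nuclear members (left) and the 13 mitochondrially encoded members (right) in 10 gated classes, with 1 point per library and exact Poisson 95% intervals. Neutrophils are lowest on the left in both libraries, and B cells and mast cells and basophils are highest on the right.

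Within the mitochondrial genome the make-up was similar in all classes. mt-Co3 supplied 26.2% of female and 25.1% of male AGM mitochondrially encoded UMIs, and between 23.0% (male endothelial cells) and 29.7% (female mast cells and basophils) in the other classes. mt-Co1, the catalytic subunit of complex IV, supplied 22.0% and 21.9% in AGMs. AGMs differed from some or all lymphocytes in other genes. mt-Atp6, the proton channel subunit of ATP synthase, was 13.1% and 13.04% of these UMIs in AGMs, 15.6% and 15.6% in T cells, 15.9% and 16.1% in NK cells and, closer to AGMs, 13.9% and 13.6% in B cells. mt-Nd1, a membrane subunit of complex I, was 5.91% and 6.80% in AGMs and 4.74% and 5.17% in lymphocytes.

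Adjacent mitochondrial genes share bases, which bears on how reads could be split between them. mt-Atp8 and mt-Atp6 overlap by 43 bases at chrM:7927-7969 on the plus strand (GRCm38, GENCODE M21), shown here because mt-Atp8 and mt-Nd6 had the fewest UMIs of the mitochondrially encoded genes in AGMs. The ATG that opens mt-Atp6 is in capitals.
mt-Atp8 and mt-Atp6 overlap: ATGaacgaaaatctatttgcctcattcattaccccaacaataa
mt-Atp8 held 37.6 CPM in female and 35.2 CPM in male AGMs, against 4542 and 4447 CPM for mt-Atp6 on the same transcript. mt-Nd4l and mt-Nd4 share 7 bases, mt-Atp6 and mt-Co3 1, and mt-Nd5 and mt-Nd6, on opposite strands, 14. Nuclear copies of mitochondrial DNA and the many processed pseudogenes of the nuclear members can also take reads, and how the counting resolved them was not examined.

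In AGMs compared with lymphocytes pooled over B, T and NK cells, the nuclear sum was lower in both libraries. Complex II was higher in CPM of all UMIs but not when mitochondrially encoded and ribosomal protein genes were taken out of the total. By the class levels given above, the pool held classes on both sides of AGMs. In both libraries the nuclear level of AGMs lay above that of B cells and below those of T and NK cells. The mitochondrially encoded level of AGMs lay above that of NK cells and below those of B and T cells. The nuclear sum was 21121 CPM in female AGMs and 23696 CPM in lymphocytes, a ratio of 0.891 (0.884 to 0.899), and 21110 against 23118 CPM in the male library, a ratio of 0.913 (0.904 to 0.922). Ribosomal protein transcripts filled 161391 and 148186 CPM of AGMs but 292987 and 275494 CPM of lymphocytes. With mitochondrially encoded and ribosomal protein genes taken out of the total, every ratio of a nuclear gene or sum in this comparison was multiplied by 0.830 in the female and 0.844 in the male library, and the nuclear ratio was 0.740 and 0.771. The mitochondrially encoded ratio was 0.879 (0.873 to 0.885) in the female library and 1.001 (0.993 to 1.01) in the male one, so only the female value lay away from equal levels. Adrenal cortex transcripts were 238 and 220 CPM in AGMs and 20.4 and 22.7 CPM in lymphocytes, and their part in these ratios was not tested. The ratio for mitochondrially encoded genes depended on the ceiling set on the mitochondrial share of a cell, 15% of UMIs here: with a ceiling of 5% it was 0.838 and 0.866, with none 0.919 and 1.16, and with 1.2% 1.06 and 1.19.

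Of the 90 nuclear members with at least 50 UMIs in AGMs and lymphocytes together, 1 was at least 1.5-fold higher in female AGMs and 7 at least 1.5-fold lower. Over all 10020 genes these shares were 23.6% and 28.4%. In the male library 4 were higher and 7 lower of 90, against 24.5% and 25.6% of all genes. The members' median ratios were 0.881 and 0.927, and those of all genes 0.915 and 0.937.

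Complex II, which oxidises succinate and belongs to the tricarboxylic acid cycle as well, was the only complex whose nuclear sum was higher in AGMs in CPM of all UMIs. It stood at 371 against 302 CPM in the female library, a ratio of 1.23 (1.15 to 1.31), and at 378 against 313 CPM in the male one, a ratio of 1.21 (1.11 to 1.31). Without mitochondrially encoded and ribosomal protein genes in the total, an alternative chosen after seeing the data, its ratios were 1.02 (0.952 to 1.09) and 1.02 (0.940 to 1.103), with intervals that included 1. Sdhd, a membrane anchor, held 84.7 CPM in female AGMs and 62.8 CPM in lymphocytes (ratio 1.35, 1.16 to 1.56) and 93.5 against 59.4 CPM in the male library (1.57, 1.32 to 1.88). Sdhc, the other anchor, had ratios of 1.32 (1.12 to 1.54) and 1.39 (1.16 to 1.66). Of the catalytic subunits, Sdhb had intervals that included 1 in both libraries (1.06 and 1.11), and Sdha had a ratio of 1.27 (1.12 to 1.44) in the female and 0.958 (0.818 to 1.12) in the male library. The 4 assembly factors of complex II had the opposite sign as a sum, at 0.718 (0.631 to 0.815) and 0.731 (0.630 to 0.846). Sdhaf1, which serves iron-sulfur insertion, was the lowest nuclear member in both libraries, at 15.7 against 33.9 CPM (0.463, 0.339 to 0.622) and 17.1 against 36.4 CPM (0.471, 0.337 to 0.649). Sdhaf2, which attaches the flavin to Sdha, stood at 0.547 (0.420 to 0.704) and 0.609 (0.453 to 0.812).

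Members of the other complexes stood on both sides of the average. Ndufa4, named for complex I and assigned to complex IV in later work, was the most abundant accessory Nduf gene and lower in AGMs. It held 319 CPM in female AGMs and 594 CPM in lymphocytes (0.537, 0.502 to 0.573), and 369 against 570 CPM in the male library (0.646, 0.601 to 0.694). Uqcrh, the hinge protein of complex III, was lower too, at 464 against 738 CPM (0.629, 0.595 to 0.665) and 397 against 716 CPM (0.554, 0.518 to 0.593). A second small subunit of complex III, Uqcr11, was higher, at 359 against 248 CPM (1.45, 1.35 to 1.55) and 370 against 236 CPM (1.57, 1.44 to 1.71). Ndufc2, an accessory subunit of complex I, was the highest nuclear member in both libraries, at 221 against 142 CPM (1.55, 1.42 to 1.70) and 240 against 134 CPM (1.79, 1.60 to 2.00). Ndufb8, another accessory subunit, had ratios of 1.43 (1.30 to 1.58) and 1.51 (1.34 to 1.69). Ndufaf1, a complex I assembly factor, was among the 3 lowest in the male library only, at 25 UMIs in AGMs and 64 in lymphocytes (0.537, 0.324 to 0.865).

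Other abundant subunits had ratios closer to 1, Cox8a excepted. Cox8a and Cox4i1, the 2 complex IV genes with the most UMIs, had ratios of 0.742 and 1.08 in the female library and 0.731 and 1.09 in the male. Atp5e stood at 0.874 and 0.891 and Atp5l, a membrane subunit of ATP synthase, at 0.884 and 0.933. Ndufb1-ps, named after an accessory complex I subunit and annotated as non-coding, stood at 1.05 and 1.06, and Uqcr10 at 1.01 and 1.10. Among the mitochondrially encoded genes, 3 of 13 were at least 1.5-fold lower in female AGMs, where 28.4% of all genes were, and 1 in male AGMs, where 25.6% were, and none was 1.5-fold higher. mt-Nd5 passed this limit in both libraries, at 245 against 401 CPM (0.611, 0.566 to 0.660) and 206 against 352 CPM (0.584, 0.531 to 0.642). mt-Atp8 stood at 0.546 and 0.697, mt-Nd4l at 0.663 and 0.740 and mt-Atp6 at 0.753 and 0.850. mt-Nd1 was higher in AGMs in both libraries, at 1.10 (1.07 to 1.13) and 1.31 (1.27 to 1.36). The remaining complex I genes lay on both sides of 1: mt-Nd2 had ratios of 0.943 and 1.12, mt-Nd3 0.992 and 1.28, mt-Nd4 0.923 and 1.02 and mt-Nd6 1.11 and 0.959. The 3 complex IV genes had close values to each other, mt-Co1 at 0.922 and 1.02, mt-Co2 at 0.911 and 1.02 and mt-Co3 at 0.864 and 0.986, and mt-Cytb stood at 0.872 and 1.02.

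Genes that work beside the complexes were read from lists by function, against the 23.6% and 28.4% of all genes that were 1.5-fold higher and lower in female AGMs and the 24.5% and 25.6% in male AGMs. Of 11 genes of electron carriers and metabolite exchange, 2 were at least 1.5-fold higher and 1 lower in female AGMs, and 2 and 0 in male AGMs. Ucp2, an inner membrane carrier, held 1176 against 455 CPM in the female library (2.58, 2.47 to 2.70) and 1124 against 444 CPM in the male one (2.53, 2.39 to 2.68). Of 13 assembly factors of complex IV, 3 were lower and none higher in each library. Of 12 tricarboxylic acid cycle genes, 1 was lower in the female library and 2 in the male. Of the regulators of mitochondrial DNA and biogenesis, 1 of 8 was lower in the female and 3 of 6 in the male library, none higher, and Tfam, the packaging and transcription factor of mitochondrial DNA, stood at 0.400 (0.306 to 0.515) and 0.446 (0.337 to 0.584). Of 15 glycolysis genes, 5 were higher and 3 lower in female AGMs and 2 and 5 in male AGMs. The hexokinases, which begin glycolysis, differed in opposite directions: Hk2 was at 58.3 against 4.34 CPM and 70.1 against 2.87 CPM, Hk3 at 27.5 against 2.97 and 22.4 against 2.16 CPM, and Hk1 at 14.2 against 37.1 and 13.8 against 41.9 CPM.

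**Figure D2:**
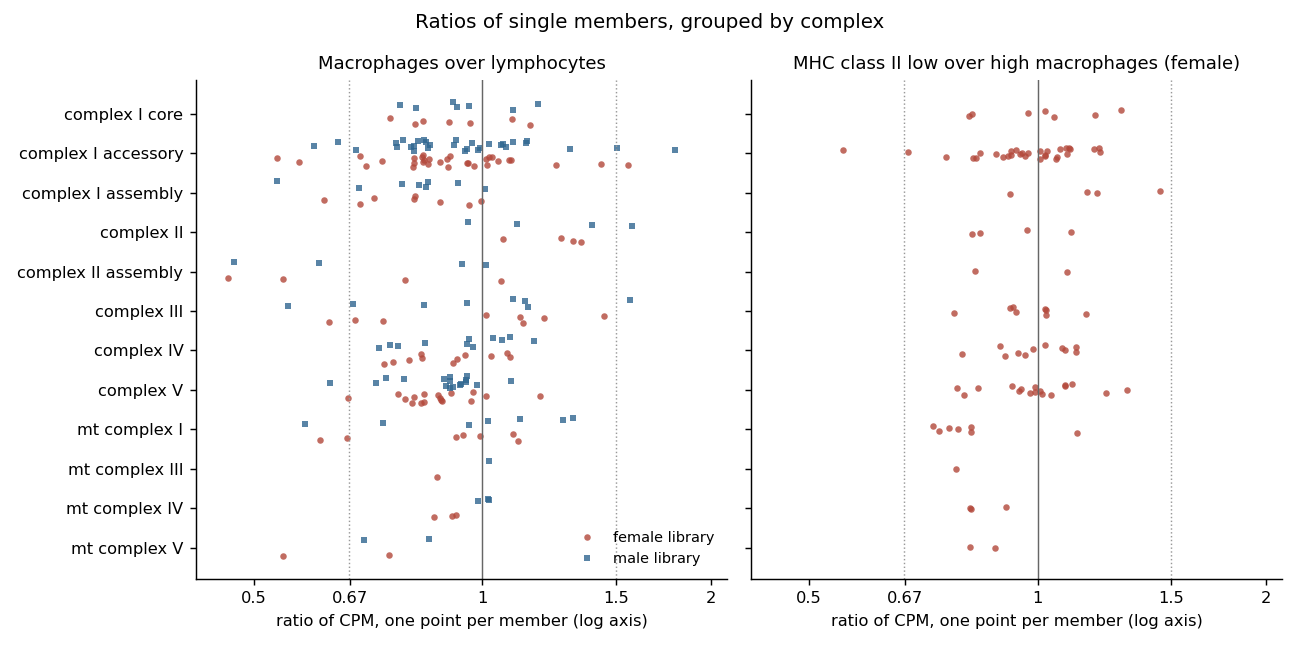
Ratio of CPM of each member with at least 50 UMIs in the 2 groups, by complex, on a log axis. Left, macrophages over lymphocytes in both libraries. Right, MHC class II low over high macrophages in the female library. Dotted lines mark 1.5-fold. The 4 complex II genes lie right of 1 on the left panel apart from male Sdha, and the mitochondrially encoded genes lie left of 1 on the right panel, mt-Nd6 excepted.

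AGMs outside the Lyve1-high and Aldh1a2-high subsets were split by their MHC class II level, at 10 UMIs of Cd74, H2-Eb1, H2-Ab1 or H2-Aa in a draw of 1000 UMIs per cell. This gave 164 low and 489 high female cells, but only 16 low against 535 high male cells. Cells with under 1000 UMIs, 60 of 713 female and 120 of 671 male ones, could not enter the draw and were left out. In the female library the nuclear members were nearly level between the groups and the mitochondrially encoded ones lower in MHC class II low cells. The nuclear sums were 21242 and 21529 CPM, a ratio of 0.987 (0.969 to 1.005), and the mitochondrially encoded sums 29508 and 35781 CPM, a ratio of 0.825 (0.812 to 0.837). In the male library the nuclear ratio was 1.04 (0.986 to 1.10) and the mitochondrially encoded 0.946 (0.902 to 0.993). The latter changed side of 1 with the mitochondrial ceiling, to 1.01 at 5% and to 2.12 with none. A ceiling of 1.2% left 13 low and 21 high female cells. With it the female nuclear ratio was 0.801 (0.744 to 0.863). The female mitochondrially encoded ratio then changed side of 1, to 1.13 (1.004 to 1.26).

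Among the nuclear groups of the female library, the complex I accessory subunits had a ratio of 0.961 (0.928 to 0.994). That group was formed by symbol and so held Ndufa4, and a ratio without this gene is not given here. The other groups of subunits had intervals that included 1 in CPM of all UMIs. Complex I core subunits stood at 0.999 (0.892 to 1.12), complex II at 0.947 (0.822 to 1.09), complex III at 1.005 (0.947 to 1.07), complex IV at 0.993 (0.959 to 1.03) and complex V at 0.997 (0.966 to 1.03). With the 4 MHC class II genes taken out of the total, complex IV stood at 0.9501 (0.917 to 0.984), complex V at 0.954 (0.924 to 0.986) and the nuclear sum at 0.944 (0.927 to 0.961), all with intervals below 1. Of 84 nuclear members tested, none was 1.5-fold higher and 1 was 1.5-fold lower, where 8.95% and 5.57% of 6013 genes were. That gene was Ndufa4, at 197 CPM in low and 356 CPM in high cells (0.555, 0.462 to 0.662). In male cells it was 433 CPM (25 UMIs) and 393 CPM, with an interval from 0.710 to 1.64. Ndufc2 was also lower in female low cells, at 194 against 255 CPM (0.758, 0.627 to 0.911), and in male cells at 191 against 270 CPM, where the interval (0.350 to 1.27) included 1. The proton-ring gene Atp5g3 was higher, at 267 against 204 CPM (1.31, 1.11 to 1.55) in the female library and 312 against 236 CPM (1.32, 0.779 to 2.11) in the male one. Ndufa9 (0.675), Ndufaf2 (1.45) and Ndufs1 (1.29), the other extremes of the female library, had intervals that included 1.

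The mitochondrially encoded genes except mt-Nd6 had ratios below 1 in female MHC class II low cells, none of them by 1.5-fold, and that of mt-Atp8, with 25 and 79 UMIs, had an interval that included 1 (0.878, 0.536 to 1.39). mt-Nd1 had the lowest ratio, 1582 against 2173 CPM (0.728, 0.683 to 0.776), and mt-Co1 the highest of those below 1, 6945 against 7636 CPM (0.910, 0.882 to 0.938). mt-Co3 stood at 7697 against 9421 CPM (0.817, 0.793 to 0.841) and mt-Cytb, the complex III gene, at 2972 against 3802 CPM (0.782, 0.746 to 0.819). mt-Nd6, with 39 and 96 UMIs, stood at 1.13 (0.756 to 1.65). In the male library the 16 low cells gave intervals that included 1 for mt-Nd1 (0.906), mt-Co1 (0.930), mt-Co3 (1.04) and mt-Cytb (1.005), while mt-Co2 was lower, at 2843 against 3680.1 CPM (0.773, 0.658 to 0.902). There, 11 nuclear members were 1.5-fold higher and 9 lower of 84, against 24.6% and 26.6% of all genes, and Sdhaf4, Ndufaf4 and Ndufaf2 had 0 UMIs in the low cells. The highest there, Ndufs3 (2.71, 1.32 to 4.98), Ndufs4 (2.56, 1.252 to 4.70) and Ndufs1 (2.40, 0.758 to 5.84), rested on 11, 11 and 5 UMIs in the low cells. Of the mitochondrially encoded genes, 3 were 1.5-fold lower and none higher, and mt-Atp8 had 0 UMIs in the low cells.

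Female low and high cells had a median of 4240 and 3787 UMIs and adrenal cortex transcripts at 234 and 233 CPM. Some of these ratios changed side of 1 with where the groups were cut. With the lowest and highest tertile of cells by MHC class II in place of the 10 UMI boundary, the nuclear ratio was 1.14 in the female and 1.18 in the male library, and the mitochondrially encoded one 0.869 and 1.11, so the female nuclear and the male mitochondrially encoded ratio changed side. The tertile totals kept the 4 MHC class II genes, by whose level the cells were grouped. A tertile ratio without these genes is not given. At the 10 UMI boundary, without the 4 MHC class II genes in the total, the nuclear ratio was 0.944 and 0.984. Of 13 glycolysis genes tested in the female library, 1 was 1.5-fold higher in low cells and none lower, where 8.95% and 5.57% of all genes were. The list's median ratio there was 1.19, beside 1.04 over all genes. In the male library none of 10 tested was 1.5-fold higher or lower, where 24.6% and 26.6% of all genes were. The median ratio there was 0.992, beside 1.02 over all genes. Pkm, the last enzyme of glycolysis, stood at 387 against 276 CPM (1.40, 1.22 to 1.62) in the female library and at 329 against 222 CPM (1.48, 0.886 to 2.34) in the male one.

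The Lyve1-high AGMs, 60 female and 119 male cells, had more mitochondrially encoded and fewer nuclear transcripts of the system than the other AGMs, 713 and 671 cells. Mitochondrially encoded genes held 52821 CPM against 34379 CPM in the female library, a ratio of 1.54 (1.503 to 1.57), and 61476 against 32565 CPM in the male one, a ratio of 1.89 (1.86 to 1.92). Nuclear genes held 18210 against 21331 CPM (0.854, 0.823 to 0.885) and 17787 against 21598 CPM (0.824, 0.7996 to 0.848). Of the 13 mitochondrially encoded genes, 10 in the female and 12 in the male library were at least 1.5-fold higher and none 1.5-fold lower, where 24.4% and 24.8% of all genes were higher. Of the 84 nuclear members tested, 2 were higher and 17 lower in the female library and 2 and 21 in the male, where 23.1% and 23.8% of all genes were lower.

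mt-Nd2, a complex I subunit, held 1995 against 1116 CPM in the female library (1.79, 1.59 to 2.00) and 2822 against 1152 CPM in the male (2.45, 2.26 to 2.65). mt-Co1 held 12056 against 7513 CPM (1.60, 1.53 to 1.68) and 15041 against 6857 CPM (2.19, 2.12 to 2.27). mt-Co3 differed by less, with ratios of 1.42 (1.36 to 1.49) and 1.72 (1.67 to 1.78). mt-Nd6 had 9 and 12 UMIs in the Lyve1-high cells, and its intervals, around 1.14 and 1.21, included 1. On the nuclear side, complex I accessory subunits had ratios of 0.794 and 0.792, complex IV 0.843 and 0.806 and complex V 0.861 and 0.830. Complex II stood at 0.881 (0.659 to 1.16) and 1.19 (0.973 to 1.44), with intervals that included 1. Ndufc2, high in AGMs against lymphocytes, was lower here, at 108 against 237 CPM (0.455, 0.268 to 0.724) and 160 against 260 CPM (0.613, 0.441 to 0.834). Among the extremes of the rule, Ndufb6 stood at 0.376 and 0.557, Ndufs4 at 0.579 and 0.332 and Ndufab1 at 0.809 and 0.434, Ndufaf2 and Ndufaf3 rested on 1 UMI in female Lyve1-high cells, and Ndufs1, Ndufaf4 and Sdhaf2 on 9 or fewer in each library. Sdhc was higher in the male library (163 against 76.1 CPM, 2.15, 1.51 to 2.99) but not in the female one (0.814, 0.385 to 1.53), and Atp5a1, a catalytic-head subunit of ATP synthase, stood at 1.16 and 1.52.

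**Figure D3:**
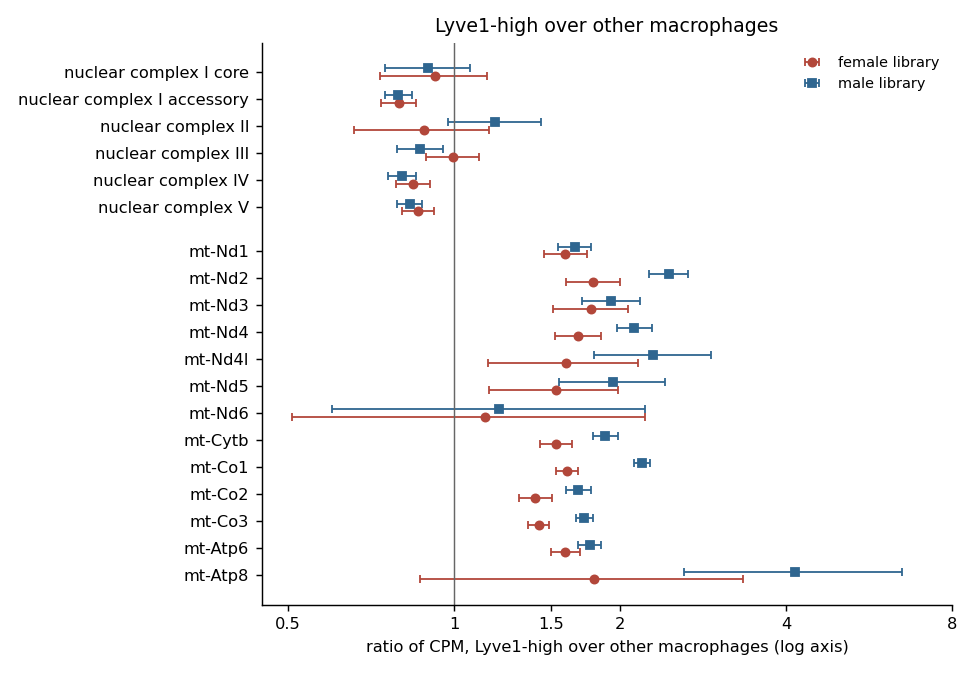
Ratio of CPM in Lyve1-high over other macrophages, on a log axis, for 6 nuclear groups and for each of the 13 mitochondrially encoded genes, with exact 95% intervals. All 13 mitochondrially encoded ratios lie above 1 in both libraries, mt-Nd6 and female mt-Atp8 with intervals that include 1, and the nuclear groups lie at or below 1 apart from complex II in the male library.

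The cells' mitochondrial shares and depths differed beside this result. The median mitochondrial share was 5.70% in female and 6.78% in male Lyve1-high cells and 3.02% and 2.87% in other AGMs, and the median UMIs per cell 2220.5 and 1975 against 3612 and 2612. With a 5% ceiling, which removes cells by the quantity compared, the mitochondrially encoded ratio was 1.13 and 1.14 and the nuclear ratio 0.918 and 0.855. With only cells of at least 1000 UMIs the mitochondrially encoded ratio was 1.54 and 1.91. Adrenal cortex transcripts were 270 and 389 CPM in Lyve1-high and 237 and 208 CPM in other AGMs. Their part in the result was not tested. In the Aldh1a2-high AGMs, 71 and 107 cells, the mitochondrially encoded level was lower than in other AGMs, at 0.815 (0.797 to 0.833) and 0.766 (0.751 to 0.781). There the nuclear level had ratios of 0.970 (0.945 to 0.996) and 0.954 (0.932 to 0.976). Of 84 nuclear members, 3 were 1.5-fold higher and 8 lower in female Aldh1a2-high cells, where 18.1% and 23.5% of all genes were, and 2 and 10 in male ones, where 18.9% and 20.6% were.

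Both levels also differed with depth inside 1 subset. Other AGMs with under 1000 UMIs, 60 female and 120 male cells, held 12999 and 9024 CPM of nuclear and 52186 and 49573 CPM of mitochondrially encoded transcripts. Those with 1000 to 2000 UMIs held 24601 and 25948 CPM of nuclear transcripts, and deeper cells between 20175 and 24919 CPM. In Lyve1-high cells with 2000 to 4000 UMIs, 20 female and 47 male cells, mitochondrially encoded transcripts were 59945 and 62405 CPM, against 34197 and 32152 CPM in other AGMs of the same depth.

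**Figure D4:**
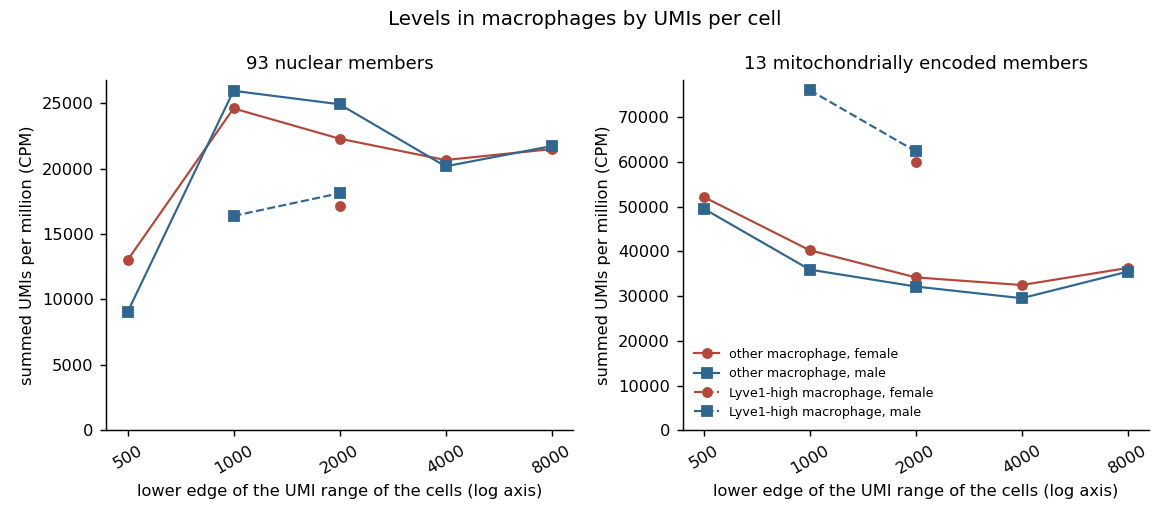
CPM of nuclear (left) and mitochondrially encoded (right) members against UMIs per cell, in other and in Lyve1-high macrophages. Ranges with under 20 cells are not drawn. Other macrophages below 1000 UMIs are lowest on the left, and Lyve1-high cells lie above other macrophages of the same depth on the right.

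Several subunits exist as paralogs, whose shares are given here by cell class. Complex IV subunit 6a has the widely expressed form Cox6a1 and the heart and muscle form Cox6a2. In plasmacytoid dendritic cells, the interferon-producing relatives of dendritic cells, 86 of 94 Cox6a UMIs in the female and 31 of 36 in the male library came from Cox6a2 (91.5%, 83.9 to 96.3, and 86.1%, 70.5 to 95.3). The gene was found in 12 of 13 and 5 of 6 of these cells and reached 2184 and 1279 CPM, while Cox6a1 stood at 203 and 206 CPM. Elsewhere Cox6a2 was rare: 10 of 867 Cox6a UMIs in female and 5 of 868 in male AGMs, 13 of 1159 and 2 of 566 in NK cells, 4 of 773 and 0 of 412 in T cells, and 0 of 104 and 0 of 88 in dendritic cells. As a background, Cox6a2 was seen in 1 of 504 female and 0 of 267 male B cells, at a median of 2201.5 and 1780 UMIs per cell, against 2610 and 2628 UMIs in plasmacytoid dendritic cells. Of all Cox6a2 UMIs in filtered cells, 122 female and 39 male, these 13 and 6 cells held 86 and 31. Cox6a2 was not among the markers of the gate.

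Cox6b2, known from testis, was a larger share in dendritic cells than in AGMs and lymphocytes, with 9 of 229 Cox6b UMIs in the female (3.93%, 1.81 to 7.33) and 22 of 213 in the male library (10.3%, 6.59 to 15.2), in 9 of 71 and 14 of 65 cells. AGMs held 15 of 1820 and 16 of 1735, and lymphocytes 13 of 4316 and 4 of 2027. Female monocytes held 13 of 424 and male ones 2 of 262, and mast cells and basophils, at few UMIs, 3 of 29 (10.3%, 2.19 to 27.4) and 1 of 7 (14.3%, 0.361 to 57.9). Cox7a1 was a larger share of Cox7a1 and Cox7a2 UMIs in AGMs (22 of 1493, 1.47%, and 19 of 1357, 1.40%) than in lymphocytes (14 of 4134, 0.339%, and 2 of 1933, 0.103%). Cox7a2l, which helps complexes III and IV assemble into supercomplexes, made up 36.8% and 34.1% of Cox7a2 and Cox7a2l UMIs in AGMs and 40.6% and 39.8% in lymphocytes. Cox4i2 and Ndufa4l2, both known for induction in low oxygen, had 2 and 5 UMIs and 4 and 4 UMIs in AGMs and 0 in lymphocytes of both libraries.

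The c subunit of ATP synthase, which forms the proton-driven ring, is encoded by Atp5g1, Atp5g2 and Atp5g3, whose mature protein is the same. Atp5g1 supplied 36.0% of these UMIs in female AGMs (1300 of 3607, 34.5 to 37.6) and 33.9% in male AGMs (1117 of 3297, 32.3 to 35.5), against 28.3% (27.4 to 29.2) and 30.2% (28.9 to 31.6) in lymphocytes. Inside the AGMs the difference between subsets was larger. Other AGMs stood at 37.7% (36.0 to 39.4) and 36.6% (34.8 to 38.5), Lyve1-high at 26.6% (19.5 to 34.8) and 23.4% (18.2 to 29.2), and Aldh1a2-high at 24.6% (20.2 to 29.5) and 25.1% (21.4 to 29.1). Monocytes stood at 26.8% and 25.8%. In CPM, Atp5g1 was 405 and 401 in other AGMs, 222 and 207 in Lyve1-high and 281 and 292 in Aldh1a2-high cells. The 160 bases before the RefSeq start of each gene (GRCm38.p6, all on the minus strand, printed 5′ to 3′ along the transcript) are shown because transcripts of the 3 genes, which share a mature protein, differed in proportion, with the promoter of Cox6a1 beside them. Capitals mark a form of the nuclear respiratory factor 1 (NRF1) motif, GCGC before and after any 2 bases, and the ETS family motif CCGGAAG, on either strand.
Atp5g1, chr11:96075632-96075791: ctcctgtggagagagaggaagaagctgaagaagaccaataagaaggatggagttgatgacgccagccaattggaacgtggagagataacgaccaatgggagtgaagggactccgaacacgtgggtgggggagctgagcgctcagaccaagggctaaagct
Atp5g2, chr15:102671048-102671207: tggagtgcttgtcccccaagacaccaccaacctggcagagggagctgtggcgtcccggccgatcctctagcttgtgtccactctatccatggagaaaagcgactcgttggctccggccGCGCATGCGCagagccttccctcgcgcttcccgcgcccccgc
Atp5g3, chr2:73911327-73911486: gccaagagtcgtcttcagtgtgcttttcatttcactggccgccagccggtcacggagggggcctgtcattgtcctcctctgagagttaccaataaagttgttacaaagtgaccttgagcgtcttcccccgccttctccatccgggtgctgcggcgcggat
Cox6a1, chr5:115348959-115349118: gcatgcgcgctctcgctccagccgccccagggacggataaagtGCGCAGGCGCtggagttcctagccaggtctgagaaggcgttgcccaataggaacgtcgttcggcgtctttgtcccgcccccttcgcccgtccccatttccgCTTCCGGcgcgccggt
Atp5g2 held 1 NRF1 motif, beginning 42 bases before the start, and Cox6a1 held 1 NRF1 and 1 ETS motif, beginning 117 and 16 bases before it. In Atp5g1 and Atp5g3 these letters did not occur in the bases shown, and the longer Atp5g3 window described next did hold the NRF1 letters.

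RefSeq promoter windows, 250 bases before to 50 after the start, were matched by symbol for 77 of the 93 nuclear members. The NRF1 letters occurred in 22 of them (28.6%) and in 6.43% of all 27025 windows, and the ETS letters in 21 (27.3%) and in 9.12% of all windows. At least 1 of the 2 occurred in 38 members (49.4%) and in 14.4% of all windows. AAGATGGC, a YY1 motif, occurred in 9 (11.7%, against 2.88%), and the box GGGCGGG, bound by Sp1, in 28 (36.4%, against 25.8%). Both strands were searched in each case, and the Sp1 box may overlap the other motifs. These are counts of letters, not of bound sites.

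**Figure D5:**
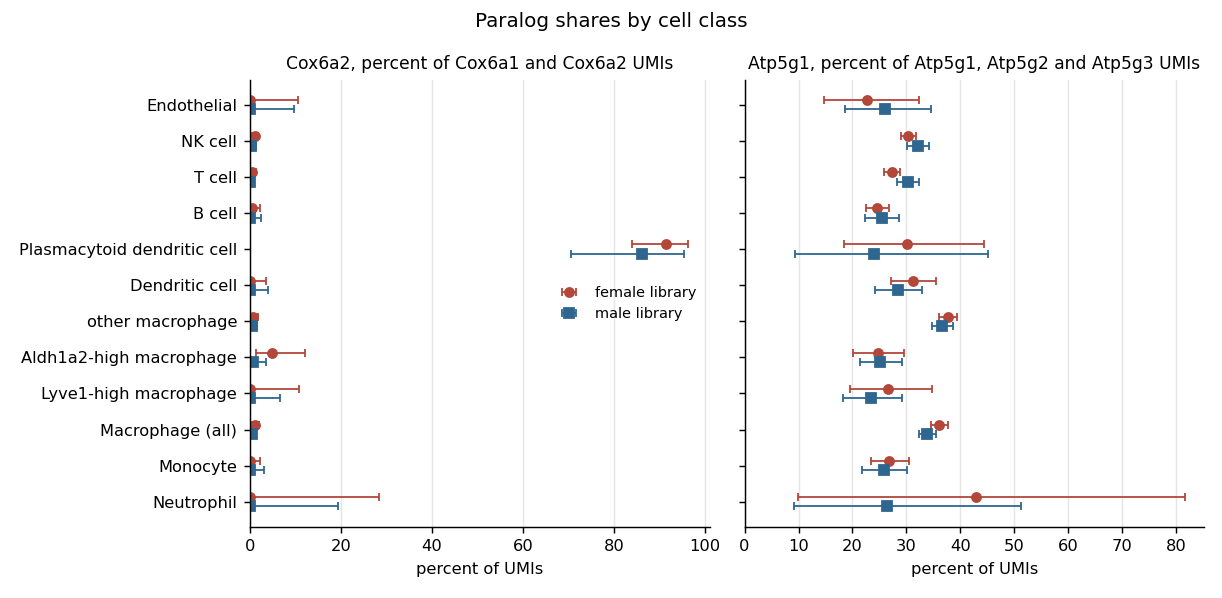
Left, Cox6a2 as a percent of Cox6a1 and Cox6a2 UMIs. Right, Atp5g1 as a percent of Atp5g1, Atp5g2 and Atp5g3 UMIs. Classes and macrophage subsets are in rows, and points are libraries with exact binomial 95% intervals. Plasmacytoid dendritic cells stand alone on the left, and other macrophages lie above Lyve1-high and Aldh1a2-high macrophages on the right.

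Single nuclear genes were also compared over the 10 classes. Among 89 nuclear members with at least 200 UMIs, the ratio of the highest to the lowest class (mean of both libraries, with 10 CPM added) had a median of 2.76 and was under 3 for 48 genes. Cox6b1 had the narrowest range, 1.52. Atp5g2 had the widest, 11.8, from 643 CPM in plasmacytoid dendritic cells to 45.3 CPM in neutrophils, followed by Ndufc2 (9.64, 307 CPM in endothelial cells and 22.9 CPM in neutrophils), Ndufv1 (8.79), Ndufa5 (8.57) and Sdhaf2 (7.75). Ndufa10 (7.72), Sdhaf1 (7.66), Ndufs8 (7.44), Sdhaf3 (7.21) and Ndufa9 (7.16) completed the 10 widest. Of these 10, 8 had their lowest level in neutrophils and 2, Sdhaf1 and Sdhaf2, in plasmacytoid dendritic cells, both of them classes with few UMIs. Some highest levels rested on small classes too. Ndufv1, Sdhaf1 and Sdhaf3 were highest in mast cells and basophils, and Atp5g2 and Ndufa9 in plasmacytoid dendritic cells. These classes held 18468 and 24236 UMIs in the male library, where single UMIs weigh heavily.

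The study asked how AGMs differ between the sexes, and in the sums of these genes over all AGMs the 2 libraries were close. The nuclear sum of all AGMs had a female over male ratio of 1.001 (0.990 to 1.01) and the mitochondrially encoded sum 1.02 (1.01 to 1.03). The latter was below 1 with no mitochondrial ceiling (0.908) and as a mean over cells (0.953). The mitochondrially encoded ratios of single AGM subsets, given below, lay on both sides of 1. Lyve1-high cells, with more of these transcripts than other AGMs, were 60 of 844 female and 119 of 897 male AGMs. The part of subset make-up in the ratio over all AGMs was not tested. Of 88 nuclear members tested 1 was 1.5-fold higher in the female library, where 2.68% of 8457 genes were, and none 1.5-fold lower, where 5.88% of genes were. That gene, Ndufaf1, had 44 and 25 UMIs and an interval that included 1 (1.58, 0.947 to 2.70). Sdha (1.19, 1.01 to 1.39) and Uqcrh (1.17, 1.08 to 1.26) were the next highest, and Ndufaf4 (0.712, 0.524 to 0.964), Ndufa9 (0.763, 0.615 to 0.945) and Cox5a, a nuclear subunit of complex IV (0.839, 0.768 to 0.917), the lowest. Of the mitochondrially encoded genes mt-Nd6 had the highest ratio (1.31, 1.02 to 1.70) and mt-Nd1 the lowest (0.885, 0.856 to 0.915).

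In other classes the nuclear ratio also lay near 1, from 0.949 in B cells to 1.055 in NK cells, among monocytes and lymphocytes. The mitochondrially encoded ratio was above 1 in each: 1.28 (1.27 to 1.30) in B cells, 1.14 (1.13 to 1.15) in T cells, 1.13 (1.10 to 1.16) in monocytes and 1.10 (1.09 to 1.11) in NK cells. Among AGM subsets it was 1.12 in MHC class II high and in Aldh1a2-high cells, 0.859 (0.837 to 0.882) in Lyve1-high cells and 0.975 (0.929 to 1.02) in MHC class II low cells, 16 of them male. With 1 library per sex, sex and library cannot be told apart.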

How the data were processed

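Per the labels and the file headers, the authors counted UMIs with Cell Ranger 4.0.0 from Chromium 3′ (v3.1) libraries, kept barcodes by the knee and inflection points of DropletUtils 1.4.3, and used Seurat 3.1.0 with a mitochondrial ceiling of 1.2%. The deposited values are raw UMI counts for 3963 female and 2685 male barcodes, and that ceiling, read as a percent of UMIs, leaves 327 and 359 of them, far fewer than the cells the study kept. Its scale is therefore uncertain, and the 1.2% alternatives here may not be the study's setting. Here cells with at least 200 genes and at most 15% mitochondrial UMIs were kept (137 and 170 barcodes lay above). Because the automatic doublet caller of scanpy 1.11.5 marked only 9 barcodes, those with the highest scores were removed at 0.8% per 1000 barcodes (123 and 53). A class needed at least 2 of its markers and a score 1.5 times that of the next class, so names were rebuilt and may differ from those of the study. A member or gene was counted as different at a ratio of 1.5 or beyond, with at least 50 UMIs in both groups together. Poisson, binomial and conditional binomial intervals were exact (scipy 1.17.1), and the procedure was tested on simulated data. Members and lists were chosen with earlier results of these data known. Named with values were the mitochondrially encoded genes, the 2 most abundant nuclear members of each complex, the 10 with the widest range over classes, a list of paralogs and, in each comparison, the 3 highest and 3 lowest nuclear ratios; other named genes were chosen after their values were seen. Mitochondrial ceilings, doublets, clusters, depth, totals, the MHC class II boundary and the limits on UMIs and ratios were varied. Coordinates are GRCm38.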

Additional observations from a re-analysis of the deposited data

Results flagged for a closer look

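The sum of the mitochondrially encoded complex I genes differed between AGMs and lymphocytes in opposite directions in the libraries. Its ratio was 0.956 (0.941 to 0.972) in the female and 1.12 (1.10 to 1.14) in the male library. Not every gene followed the sum. In both libraries mt-Nd1 was above 1 and mt-Nd5 and mt-Nd4l were below 1, and mt-Nd6 was above 1 in the female library only. The difference between the libraries was not tested.

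Barcodes above the ceiling of 15% mitochondrial UMIs, counted here after doublet removal, entered no main comparison, only those with no ceiling. They held nuclear oxidative phosphorylation transcripts, at 12433 CPM over 134 female and 10754 CPM over 165 male barcodes, with a median of 892 and 901 UMIs. Of these, 46 and 97 carried macrophage markers. The cells without a class also held them, at 23428 CPM over 371 female and 22996 CPM over 224 male cells.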

How the results depend on the processing

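No paired analysis was possible because the libraries of each sex are single and no comparison rests on replicates. Of the alternative ratios of the nuclear and the mitochondrially encoded sum, 53 stayed within the main interval, 54 left it and 7, whose main interval excluded 1, changed side of 1, and of the alternative counts of members 15 stayed within 1.5 times and 13 did not. Values are given for the female and then the male library. No cause of a change was tested. The mitochondrial ceilings remove cells by mitochondrial share itself.

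For AGMs over lymphocytes the nuclear ratio was 0.865 (female) with a 5% ceiling, 0.902 (male) with none, 0.745 (female) with 1.2%, 0.911 and 0.884 as a mean over cells, 0.930 (male) with at least 1000 UMIs, and 0.740 and 0.771 without mitochondrially encoded and ribosomal protein genes. The mitochondrially encoded ratio was 0.838 and 0.866 with 5%, 0.919 and 1.16 with none, 1.06 and 1.19 with 1.2%, 0.959 and 1.18 as a mean over cells, 0.872 and 0.983 with at least 1000 UMIs, and 0.979 (male) by clusters.

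For MHC class II low over high AGMs the nuclear ratio was 0.926 (male) with no ceiling, 0.801 (female) with 1.2%, 0.962 (male) as a mean over cells, 0.978 (male) by clusters, 1.14 and 1.18 by tertiles and 0.944 and 0.984 without MHC class II genes. The mitochondrially encoded ratio was 0.873 and 1.01 with 5%, 0.842 and 2.12 with no ceiling, 1.13 (female) with 1.2%, 0.854 (female) by clusters, 0.869 and 1.11 by tertiles and 0.789 and 0.893 without MHC class II genes.

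For Lyve1-high over other AGMs the nuclear ratio was 0.918 and 0.855 with 5%, 0.796 (male) with no ceiling, 0.892 (female) as a mean over cells, and 0.849 and 0.794 (male) without mitochondrially encoded genes and without those and ribosomal protein genes. The mitochondrially encoded ratio was 1.13 and 1.14 with 5%, 1.58 and 2.16 with none, 1.60 and 1.92 as a mean over cells and 1.49 (female) by clusters. A 1.2% ceiling left under 10 cells for this comparison and for the male MHC class II one.

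For female over male AGMs the nuclear ratio was 1.07 with 1.2%, 1.05 as a mean over cells, 0.988 with at least 1000 UMIs and 1.02 without mitochondrially encoded and ribosomal protein genes. The mitochondrially encoded ratio was 1.06 with 5%, 0.908 with none, 1.05 with 1.2%, 1.03 without doublet removal, 1.04 by clusters, 0.953 as a mean over cells and 1.03 with at least 1000 UMIs.

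With the limit at 25% higher or 20% lower in place of 1.5-fold, the nuclear members past it were 26 and 27 for AGMs over lymphocytes (8 and 11 before), 9 and 42 for MHC class II (1 and 20), 39 and 47 for Lyve1-high (19 and 23) and 3 for sex (1). The mitochondrially encoded ones were 5 (male) for AGMs over lymphocytes, 5 and 5 for MHC class II and 1 for sex. Of all genes, 71.1% and 70.4%, 37.2% and 73.4%, 69.1% and 70.0%, and 27.3% were past that limit in these comparisons. With at least 10 UMIs in place of 50, the nuclear counts were 6 for female MHC class II cells and 2 for sex, where 26.4% and 17.9% of all genes were past 1.5-fold.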

Other observations

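Aldh1a2-high AGMs also differed from other AGMs in transcript levels of the proton-ring genes, whose mature protein is the same. Atp5g3 had ratios of 1.64 (1.33 to 2.02) in the female and 1.34 (1.10 to 1.62) in the male library, while Atp5g1 had ratios of 0.694 (0.550 to 0.865) and 0.728 (0.600 to 0.878). Both genes were chosen after their values were seen, and over all genes 18.1% and 18.9% were at least 1.5-fold higher in Aldh1a2-high cells.

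Glycolysis transcripts as a sum were lower in Lyve1-high than in other AGMs, at 1744 against 2253 CPM (0.774, 0.686 to 0.871) in the female and 1558 against 2114 CPM (0.737, 0.666 to 0.814) in the male library. Of 13 and 12 genes tested, 3 and 3 were at least 1.5-fold lower and 1 and 0 higher, where 23.1% and 23.8% of all genes were lower and 24.4% and 24.8% higher, so the counts lie near or below the share over all genes.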
